A study of Mus musculus with 16 samples.

Results

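The 10 genes described here encode vimentin (Vim), galectin-1 (Lgals1), 4 S100 proteins (S100a4, S100a6, S100a10 and S100a11), 3 annexins (Anxa1, Anxa2 and Anxa5) and the giant scaffold protein AHNAK (Ahnak). They were taken by symbol and make up 10 of the 55414 gene identifiers in the table, and each symbol matched 1 identifier. The set was chosen by, among other things, measured niche values: Vim and Lgals1 counts were known to be lower in central nervous system (CNS) than in bone marrow (BM) samples. Therefore differences between the niches are given for these genes as a description and not as a test. The comparison of the leukaemia-propagating cell types was not part of the choice as far as is known, and it is tested.

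RNA was sequenced from 16 bulk libraries of sorted leukaemia-propagating cells (LPC) from mice. All 4 groups carry the same genotype label, Kmt2a-AFF1+ with overexpression of the microRNA miR-128a, and the same disease label, pro-B acute lymphoblastic leukaemia, so no group lacks the fusion or has miR-128a at its usual level. The cells came from BM or CNS and were sorted as LSK (Lin- Sca1+ cKit+, also IL7R+) or as LK, which the labels also call CLP (Lin- Sca1- cKit+). There were 4 libraries in each combination of niche and cell type. The ages of the mice, the driver of the fusion and whether cells were pooled are not given in the sources used here. A BM and a CNS library with the same LPC type and number share the stem of their description label, which gives 8 stems. What a stem stands for is not explained in the labels, nor that libraries came from separate mice, so p-values measure the spread between these libraries only.

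Vimentin is the intermediate filament protein of mesenchymal cells and of leukocytes, where it forms a collapsible cage around the nucleus and gives lymphocytes stiffness. Annexins bind membrane phospholipids when calcium rises, and several S100 proteins bind annexins: S100A10 forms a complex with annexin A2, and S100A11 binds annexin A1. AHNAK binds the annexin A2 and S100A10 complex under the plasma membrane and shapes calcium entry in T cells. Galectin-1 is a sugar-binding protein that crosslinks glycoproteins on lymphocytes and other cells. In lymphocytes these genes are commonly transcribed at a high level together in activated and memory cells.

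Promoters of 4 genes are shown because they span the abundant genes (Vim, Anxa2 and Ahnak) and the S100 gene with the highest level per length of the 4 members (S100a11). The 250 bases before the annotated start came from RefSeq on GRCm38.p6, which held 8 of the 10 genes. Lgals1 and S100a10 are named only. Capitals mark 4 motifs found by a letter search on both strands: the AP-1 site TGANTCA, the SP or KLF box GGGCGG, the TATA box TATAAA and the CCAAT box. No base of the 8 windows lay in more than 1 of the motifs searched. The windows below read 5′ to 3′ on the gene's own strand, which is the plus strand in all 4, at chr2:13574061-13574310 (Vim), chr9:69453433-69453682 (Anxa2), chr19:8989034-8989283 (Ahnak) and chr3:93520246-93520495 (S100a11).
Vim: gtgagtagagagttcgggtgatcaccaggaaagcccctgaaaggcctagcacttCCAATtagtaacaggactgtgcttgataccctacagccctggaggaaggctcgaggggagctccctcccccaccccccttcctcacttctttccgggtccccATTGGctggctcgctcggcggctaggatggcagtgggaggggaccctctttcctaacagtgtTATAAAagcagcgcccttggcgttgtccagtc
Anxa2: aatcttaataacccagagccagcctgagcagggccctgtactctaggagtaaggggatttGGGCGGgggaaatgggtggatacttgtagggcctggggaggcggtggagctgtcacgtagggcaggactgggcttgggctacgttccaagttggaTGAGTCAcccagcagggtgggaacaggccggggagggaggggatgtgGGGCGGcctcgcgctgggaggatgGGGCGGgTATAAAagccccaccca
Ahnak: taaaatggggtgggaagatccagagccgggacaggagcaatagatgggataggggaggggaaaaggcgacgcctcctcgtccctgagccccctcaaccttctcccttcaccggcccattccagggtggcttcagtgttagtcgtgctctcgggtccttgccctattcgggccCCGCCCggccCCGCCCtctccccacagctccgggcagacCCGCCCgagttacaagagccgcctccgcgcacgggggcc
S100a11: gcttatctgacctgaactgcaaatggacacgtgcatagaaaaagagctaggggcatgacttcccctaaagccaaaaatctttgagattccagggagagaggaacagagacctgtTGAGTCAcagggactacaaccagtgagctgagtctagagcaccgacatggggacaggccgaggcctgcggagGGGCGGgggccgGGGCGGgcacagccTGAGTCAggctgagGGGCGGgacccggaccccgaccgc
The Vim window held a TATA box 32 bases before the start and CCAAT boxes at 196 and 94. The Anxa2 window held a TATA box at 17, SP or KLF boxes at 190, 48 and 24, and an AP-1 site at 95. Ahnak had no TATA box and 3 SP or KLF boxes, at 78, 68 and 39. S100a11 had 3 such boxes and 2 AP-1 sites, at 136 and 38, and no TATA box. Of the other windows, Anxa1 (at 32) and S100a4 (at 31) had a TATA box, S100a6 had a CCAAT box at 228 and Anxa5 had none of these 4 motifs. Among 32851 promoter windows of the same length, 6.75% held the AP-1 letters, 32.7% the SP or KLF box, 12.4% the TATA box and 33.8% the CCAAT box. These matches describe letters only, and the RNA counts do not measure binding.

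The 10 genes fell into an abundant and a scarce set. Levels are counts scaled to library size (CPM), and between genes they are compared only per kilobase (kb) of exon. Over the 16 libraries Lgals1 stood at 80.3 CPM per kb, Ahnak at 68.4, Anxa2 at 42.4 and Vim at 29.4. Anxa5 followed at 1.13 and Anxa1 at 0.730. The S100 genes were lowest, with S100a11 at 0.362, S100a6 at 0.149, S100a10 at 0.0723 and S100a4 at 0.0521. Of neighbours in this order, Ahnak and Anxa2 did not overlap in any library, nor did Vim (12.4 to 45.1) and Anxa5 (0.658 to 1.69). The other neighbours overlapped over libraries: Lgals1 exceeded Ahnak in 11 of 16 libraries, Anxa5 exceeded Anxa1 in 12, and S100a10 exceeded S100a4 in 9.

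**Figure D1:**
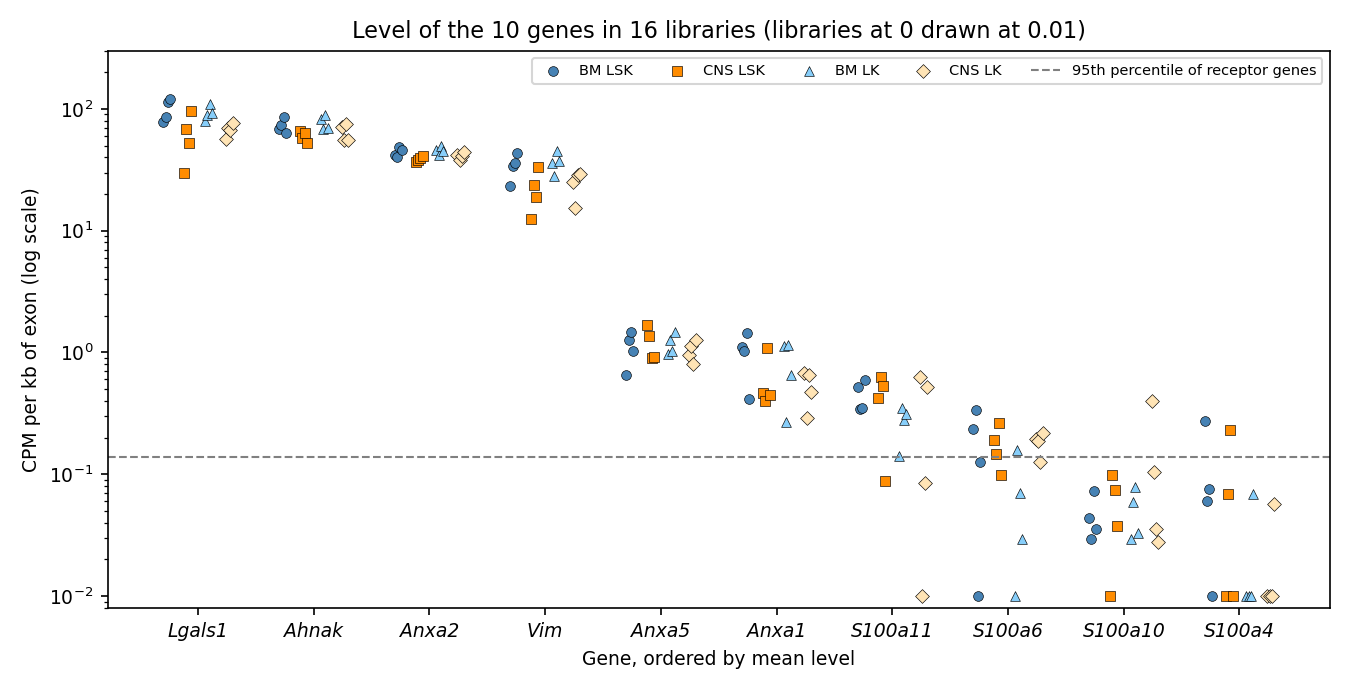
Level of each of the 10 genes in every library, in CPM per kb of exon on a log axis, with a marker shape and colour for each group of 4 libraries and libraries without a count drawn at 0.01. The dashed line is the 95th percentile of olfactory and vomeronasal receptor genes (0.138); Lgals1, Ahnak, Anxa2 and Vim lie far above it in all 16 libraries, while S100a10 and S100a4 scatter around or below it.

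The 4 S100 genes were at or near the background of the libraries. As a yardstick, 1969 genes for odour and pheromone receptors (olfactory and vomeronasal), which most tissues do not transcribe, had a median of 0.0490 CPM per kb and a 95th percentile of 0.138. S100a4, a marker of motile and memory cells, lay at percentile 54.8 of those receptor genes, and S100a10, the partner of annexin A2, at percentile 76.8. S100a6 (calcyclin) lay at percentile 95.7 and S100a11 at percentile 99.3. S100a4 had 11 counts in all, between 0 and 3 a library, and none in 9 of 16 libraries. S100a10 had 31 counts (0 to 9 a library), S100a11 had 70 (0 to 8) and S100a6 had 78 (0 to 13). No group stood apart from the others for any of the 4. S100a11 had 0.231 ± 0.0641 CPM in BM LSK, 0.213 ± 0.120 in CNS LSK, 0.138 ± 0.0468 in BM LK and 0.158 ± 0.160 in CNS LK (SD, n = 4 each). A library with no count allows up to 3 counts, which is at most 0.160 CPM at these depths. That limit covers counting error only. The 4 S100 genes had a mean below 10 counts and were not tested.

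Genes around the S100 genes on chromosome 3 were at mixed levels. In the order of protein-coding genes in GENCODE vM21, the S100 cluster follows Ilf2 (50.1 ± 3.38 CPM), Snapin (8.96 ± 1.27) and Chtop (50.6 ± 1.82, SD, n = 16 libraries). Of other neighbours, Npr1 lay at percentile 92.4 of the receptor genes, Pglyrp4 at 88.6, Tchhl1 (beside S100a11) at 80.2 and Tdpoz2 (beside S100a10) at 46.1. Within the cluster S100a13 (5.17 ± 1.03 CPM) and S100a1 (1.74 ± 0.332), which lie beside Chtop, were measurable. S100a2 (126 counts in all), S100a5 (39) and S100a7a (78) lay at percentiles 99.8, 98.3 and 95.3 of the receptor genes. S100a3, S100a4, S100a8, S100a9, S100a14 and S100a16 lay at percentiles 30.4, 54.8, 75.8, 91.0, 83.4 and 84.9. Some other genes with short exons were well counted. Lgals1, with 903 bases of exon, had 27795 counts, and Tmsb10, the short actin-binding thymosin gene with 1276 bases, stood at 159 ± 17.7 CPM. Tmsb4x, with 1371 bases, was lower at 17.3 ± 3.89 CPM. These genes have longer exons than S100a11 (511 bases) and S100a4 (584), and the part of exon length in the S100 counts was not tested.

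**Figure D2:**
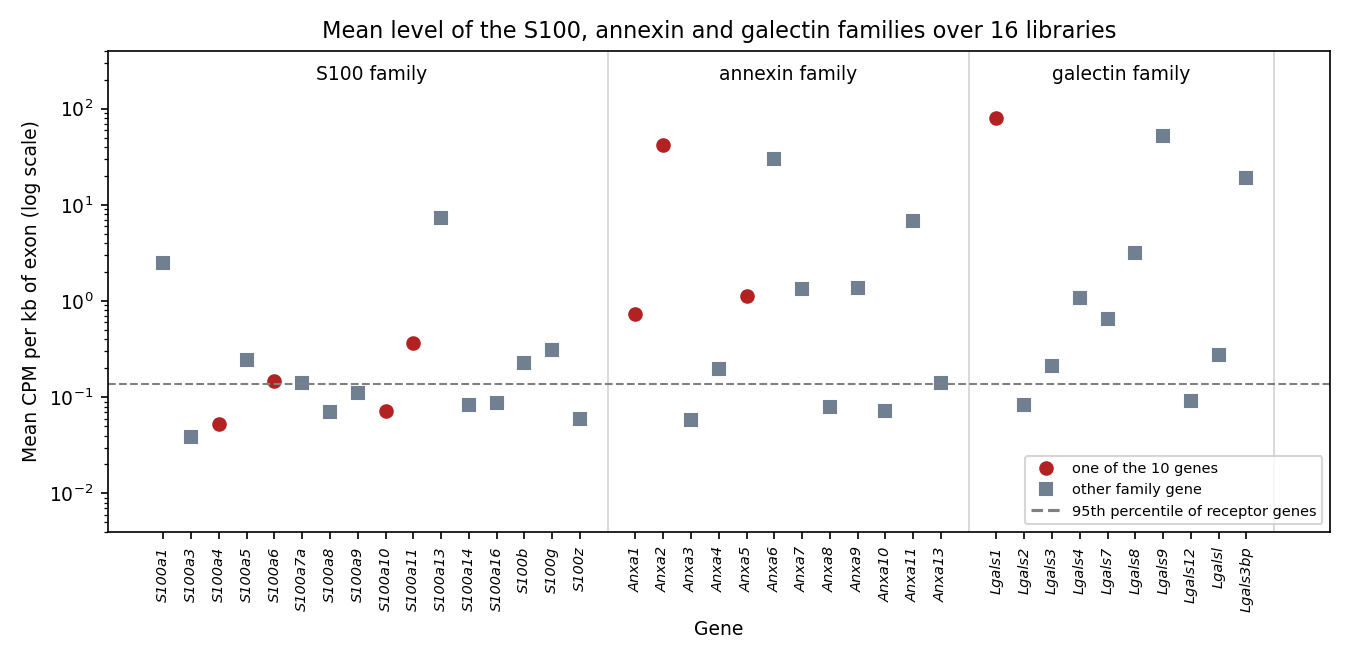
Mean level of S100, annexin and galectin family genes over 16 libraries, in CPM per kb on a log axis, with the 10 genes described here as red circles and other family genes as grey squares. In the S100 family S100a13 and S100a1 stand highest, in the annexin family Anxa2 and Anxa6, and in the galectin family Lgals1 and Lgals9; the dashed line is the 95th percentile of receptor genes (0.138).

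Families differed in how many genes reached 1 CPM per kb. Of the 16 S100 genes listed 2 did, and S100a2, which was not on the list and was looked up after its values were seen, stood at 1.04. In the annexin family 6 of 12 genes reached it and in the galectin family 5 of 10 matched genes. The close relatives of the abundant genes included Anxa6 (88.7 ± 5.67 CPM), a membrane organiser of lymphocytes, and Anxa11 (27.8 ± 3.48). The others were Lgals9 (111 ± 28.6 CPM), a galectin that binds receptors on T cells, and Lgals3bp (53.7 ± 6.65, all SD, n = 16). Relatives at lower levels were Anxa7 (8.02 ± 1.46 CPM), Anxa9 (2.82 ± 0.690), Lgals8 (11.6 ± 2.07) and Lgals4 (2.52 ± 0.660). Lgals3, the galectin of macrophages, stood at 0.393 CPM. Anxa3, Anxa8 and Anxa10 had means below 10 counts and lay under the 95th percentile of the receptor genes per kb.

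Vimentin was lower in CNS than in BM in all 8 stems. In LSK the BM libraries had 110, 162, 170 and 207 CPM, and the CNS libraries had 58.6, 113, 89.7 and 157 CPM for stems 1 to 4. In LK the BM libraries had 170, 133, 214 and 178 CPM and the CNS libraries 118, 72.7, 135 and 139 CPM. The groups overlapped within both LPC types, and LSK 4 was high and LSK 1 low in both niches. The mean was 162 ± 39.9 CPM in BM LSK, 105 ± 41.6 in CNS LSK, 174 ± 33.2 in BM LK and 116 ± 30.6 in CNS LK (SD, n = 4 each). Within stems, the log2 difference of CNS minus BM ran from −0.92 (LSK 3) to −0.36 (LK 4), which is 0.529 to 0.781 of the BM level. In bulk libraries, fewer cells that transcribe a gene and less RNA per cell cannot be told apart.

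Galectin-1 was lower in the CNS library of all 8 stems too. Its log2 stem differences spread more widely than those of Vim in LSK (SD 0.550 against 0.269) but not in LK (0.190 against 0.218). The BM LSK libraries had 70.9, 77.6, 103 and 108 CPM and the CNS LSK libraries 27.0, 62.2, 47.4 and 86.0 CPM. The BM LK libraries had 71.9, 80.6, 99.1 and 83.1 CPM and the CNS LK libraries 51.2, 62.3, 60.6 and 69.0 CPM. In LK every BM library was above every CNS library, the only gene and LPC type of the 6 measurable genes for which the niches did not overlap. The share of all identifiers without overlap was not computed, and Lgals1 was chosen by its niche values, so nothing is read from this separation. In LSK they overlapped, and the 2 stems that stood out were LSK 1 (log2 difference −1.39) and LSK 3 (−1.12), while LSK 2 and LSK 4 differed by −0.32 and −0.33. The mean was 90.0 ± 18.6 CPM in BM LSK, 55.6 ± 24.8 in CNS LSK, 83.7 ± 11.3 in BM LK and 60.8 ± 7.33 in CNS LK (SD, n = 4 each).

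Ahnak was the most counted of the 10, with 23152 to 45889 counts a library. The BM LSK libraries had 1361, 1460, 1694 and 1259 CPM and the CNS LSK libraries 1306, 1144, 1257 and 1049 CPM. The BM LK libraries had 1644, 1352, 1781 and 1401 CPM and the CNS LK libraries 1419, 1109, 1493 and 1101 CPM. Every stem was lower in the CNS, by a log2 difference of −0.43 (LSK 3) to −0.059 (LSK 1), and the groups overlapped in both LPC types. Ahnak thus showed its smallest difference in the stem where Lgals1 showed its largest.

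Annexin A2 varied least. The BM LSK libraries had 155, 150, 180 and 171 CPM and the CNS LSK libraries 136, 143, 147 and 152 CPM. The BM LK libraries had 172, 156, 184 and 167 CPM and the CNS LK libraries 157, 141, 153 and 166 CPM. Its SD within a group was 4.62% to 8.62% of the mean, against 19.1% to 39.7% for Vim and 12.1% to 44.6% for Lgals1. All 8 stems were lower in the CNS, but by −0.30 to −0.0054 on the log2 scale, and LK 4 had nearly equal values (167 and 166 CPM).

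Annexins A1 and A5, which mediate the resolution of inflammation and bind phosphatidylserine on dying cells, were scarce, with 20 to 94 and 22 to 69 counts a library. Anxa1 had 3.24, 2.97, 4.18 and 1.22 CPM in BM LSK and 1.35, 1.16, 3.18 and 1.31 CPM in CNS LSK. It had 3.26, 0.787, 3.35 and 1.91 CPM in BM LK and 1.97, 0.846, 1.89 and 1.37 CPM in CNS LK. Anxa1 was lower in the CNS in 6 of 8 stems, and its groups overlapped. Anxa5 had 1.17, 2.26, 2.62 and 1.82 CPM in BM LSK and 3.00, 2.41, 1.61 and 1.63 CPM in CNS LSK. It had 1.72, 2.25, 1.82 and 2.59 CPM in BM LK and 1.71, 1.99, 1.42 and 2.24 CPM in CNS LK. Anxa5 was lower in the CNS in 6 of 8 stems, and in LSK 1 it was higher, by 1.36 on the log2 scale.

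**Figure D3:**
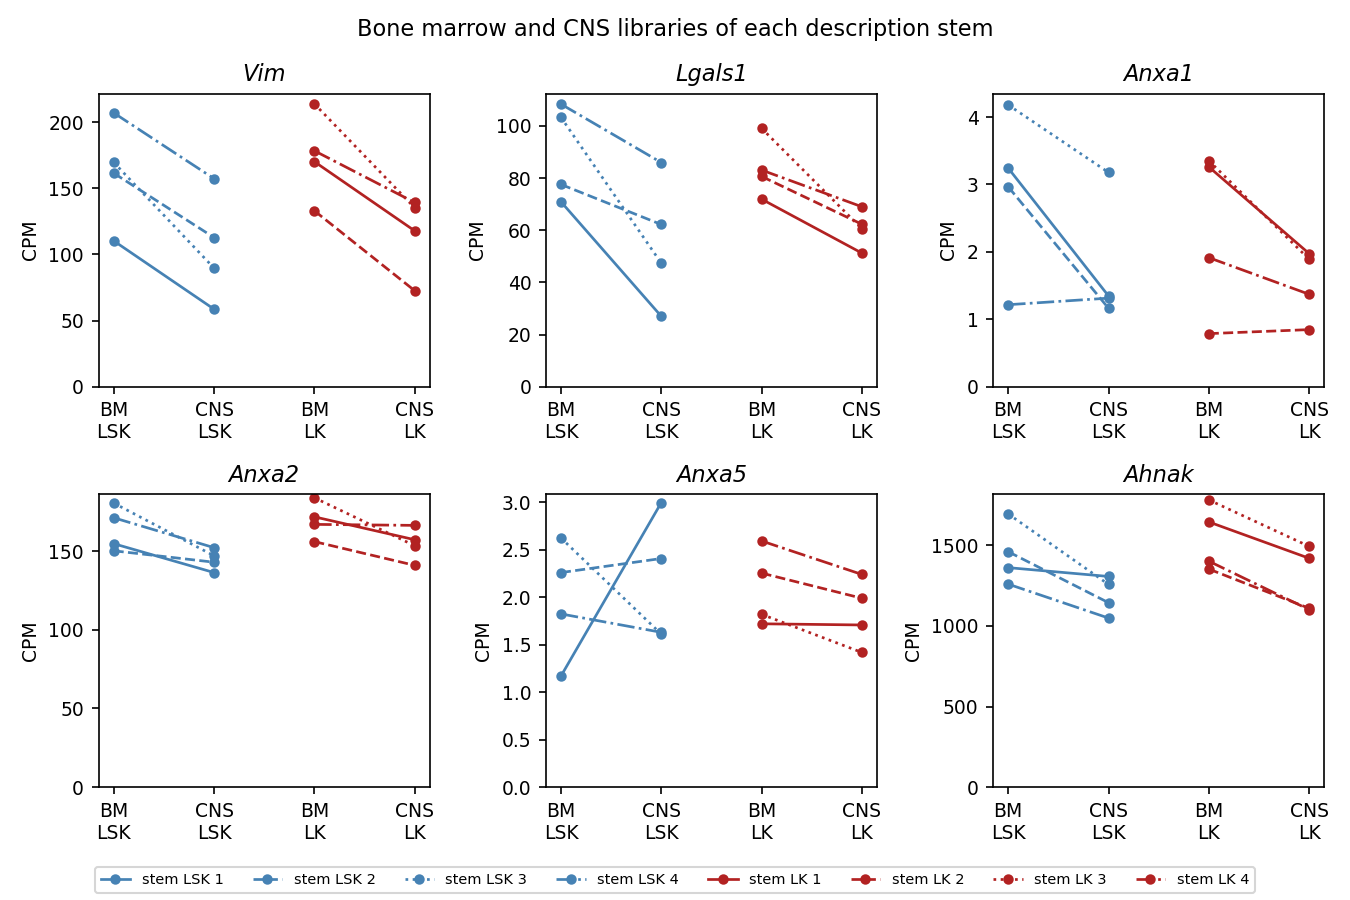
CPM of the 6 measurable genes, with the BM and the CNS library of each description stem joined by a line (blue LSK, red LK, a line style for each stem number, linear axes from 0). All 8 lines slope down for Vim, Lgals1, Anxa2 and Ahnak, and 6 of 8 for Anxa1 and for Anxa5.

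**Figure D4:**
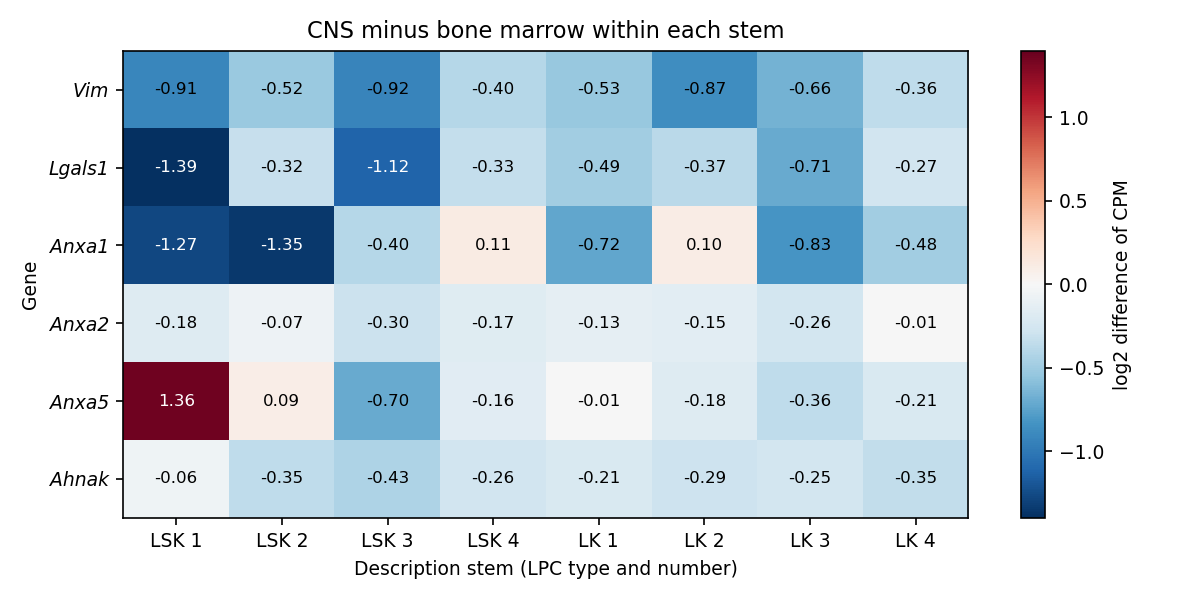
Log2 difference of CPM, CNS minus BM, for 6 genes (lines) in 8 stems (columns), with blue for lower in the CNS and red for higher. The lowest values are Lgals1 in LSK 1 (−1.39) and Anxa1 in LSK 2 (−1.35) and LSK 1 (−1.27), followed by Lgals1 in LSK 3 (−1.12), and Anxa5 in LSK 1 (1.36) is the highest.

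Being lower in the CNS in all 8 stems was shared by 4 of the 6 measurable genes. Of all 18878 identifiers averaging 10 counts or more, 1.45% were lower in all 8 stems, and of the 11828 averaging 50 counts or more, 2.15%. Because niche results led to the choice of these genes, nothing is read from that difference in shares. Fold changes are on the log2 scale. In edgeR's fit of 4 group means, the difference of CNS minus BM over both LPC types was −0.61 ± 0.17 for Vim, −0.58 ± 0.16 for Lgals1, −0.28 ± 0.085 for Ahnak and −0.16 ± 0.053 for Anxa2 (log2, SE). It was −0.67 ± 0.31 for Anxa1 and −0.028 ± 0.19 for Anxa5. The median over the 6 genes was −0.43, and over all identifiers tested it was −4.3e-07. That fit called 0 of the 6 genes and 0% of all identifiers at an adjusted p of 0.05, over both LPC types, in LSK and in LK. Without adjustment, 1727, 1083 and 754 identifiers had a p under 0.05, and DESeq2 called 40, 0 and 0 identifiers, none of them among the 6 genes. With the stem as a block, edgeR called Ahnak, Lgals1 and Vim lower over both LPC types (3 of 6; 0.667% of all identifiers called in either direction, 0.381% lower), Lgals1 and Vim in LSK (2 of 6; 0.138% called, 0.101% lower) and Vim in LK (1 of 6; 0.0636% called, 0.0318% lower). Nothing is read from these counts either.

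Other measures moved with the niche in the same libraries. Receptor genes, taken here as background, made up 312 to 1125 CPM of the counts of named genes with the CNS sample above its BM partner in 7 of 8 stems. In the exception, LK 2, the index was 486 CPM in BM and 395 in the CNS, and the log2 difference was −0.87 for Vim and −0.37 for Lgals1. The part of this background in the niche differences was not tested. Vim and Lgals1 are abundant in fibroblasts and myeloid cells, so those marker lists are given in detail. Of the other summed lists, neural and glial genes were lower in the CNS in 2 of 8 stems. Microglia and megakaryocyte genes were lower in 3 of 8, and B-lineage and mature B genes in 4 of 8. Erythroid and endothelial genes were lower in 5 of 8, and T and NK genes in 6 of 8. Pecam1 held most of the endothelial sum (57.2 to 102 CPM). The part of these cells in the results was not tested. The summed level of 8 fibroblast and meningeal genes was 19.4 to 49.4 CPM in BM LSK, 11.8 to 37.9 in CNS LSK, 23.3 to 39.3 in BM LK and 16.3 to 35.5 in CNS LK, and was lower in the CNS in 8 of 8 stems. Pdgfrb held most of that sum (8.24 to 45.5 CPM, lower in 8 of 8 stems), while the other 7 genes summed to 0.978 to 6.74 CPM and were lower in 1 of 8 stems. Col3a1, Dcn, Lum and Ptgds had means below 10 counts. The 15 myeloid genes summed to 3.16 to 35.8 CPM in BM LSK, 8.39 to 37.0 in CNS LSK, 5.08 to 21.5 in BM LK and 8.25 to 34.2 in CNS LK, and were lower in the CNS in 3 of 8 stems. Fcgr3 alone had 0.934 to 32.9 CPM and was lower in the CNS in 3 of 8 stems, and the other 14 summed to 2.22 to 8.15 CPM and were lower in 1 of 8. Cd14, Cybb, Elane, Ly6g, Camp, Ltf, Ngp, S100a8 and S100a9 had means below 10 counts. The part of Pdgfrb and of Fcgr3 in the results was not tested.

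The labelled identity was read from its markers. Rag1 (275 CPM), Il7r (83.0) and Cd24a (28.9) were abundant, but the defining B-lineage genes were not. Pax5 had 0.593 CPM and Ebf1 0.667, at percentiles 72.4 and 73.2 of the receptor genes per kb. Cd79b, Vpreb1 and Igll1 had means below 10 counts. Among T and NK genes, Gzma stood at 47.7 CPM, Cd4 at 8.63 and Cd8a at 6.01, and Cd3e at 0.276. The defining genes of the labelled pro-B identity were thus at or near the background, and the 10 genes are described by the sort labels, LSK and LK.

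LSK and LK cells did not differ detectably in any of the 6 measurable genes. For Vim, LSK minus LK over both niches was −0.13 on the log2 scale (95% interval −0.49 to 0.23, adjusted p 0.818, edgeR), and for Lgals1 it was −0.011 (−0.34 to 0.32, adjusted p 0.987). Ahnak differed by −0.10 (−0.28 to 0.075, adjusted p 0.668) and Anxa2 by −0.071 (−0.18 to 0.039, adjusted p 0.626). The scarce annexins had wide intervals, −0.38 to 0.91 around 0.27 for Anxa1 (adjusted p 0.776) and −0.32 to 0.46 around 0.073 for Anxa5 (adjusted p 0.915). In this contrast edgeR called 0 of the 6 genes and 0.238% of all identifiers. It had 2288 identifiers at an unadjusted p under 0.05, none of them among the 6 genes, whose lowest unadjusted p was 0.191 (Anxa2). DESeq2 called 222 identifiers, none of the 6. With the title number as a block 0.344% of identifiers and 0 of the 6 genes were called. The fit without a block took the BM and the CNS library of a stem as independent. Those libraries deviated together over genes averaging 50 counts or more (correlation 0.335 to 0.616), so intervals over both niches may be too narrow. With BM and CNS counts summed per stem, edgeR called 0 identifiers. The calls over both niches thus depended on how stems were treated. Within BM and within CNS edgeR called 0 identifiers (1205 and 1242 at an unadjusted p under 0.05; 29 and 6 by DESeq2), and the LSK and LK libraries overlapped in both niches for each of the 6 genes. Lgals1 differed by 0.11 in BM (−0.36 to 0.58) and by −0.13 in the CNS (−0.60 to 0.34), and Vim by −0.10 (−0.61 to 0.41) and −0.15 (−0.67 to 0.36).

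The niche difference was not shown to differ between LSK and LK. The interaction was −0.24 for Lgals1 (95% interval −0.90 to 0.43), −0.053 for Vim (−0.78 to 0.67), −0.0092 for Ahnak (−0.36 to 0.34) and −0.048 for Anxa2 (−0.27 to 0.17) on the log2 scale. It was −0.11 for Anxa1 (−1.4 to 1.17) and 0.31 for Anxa5 (−0.47 to 1.09), each of the 6 with an adjusted p of 1.000 in edgeR. The test called 0% of all identifiers (281 at an unadjusted p under 0.05; 0 by DESeq2). These intervals leave room for a difference of more than 0.5 in Lgals1 and Vim.

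**Figure D5:**
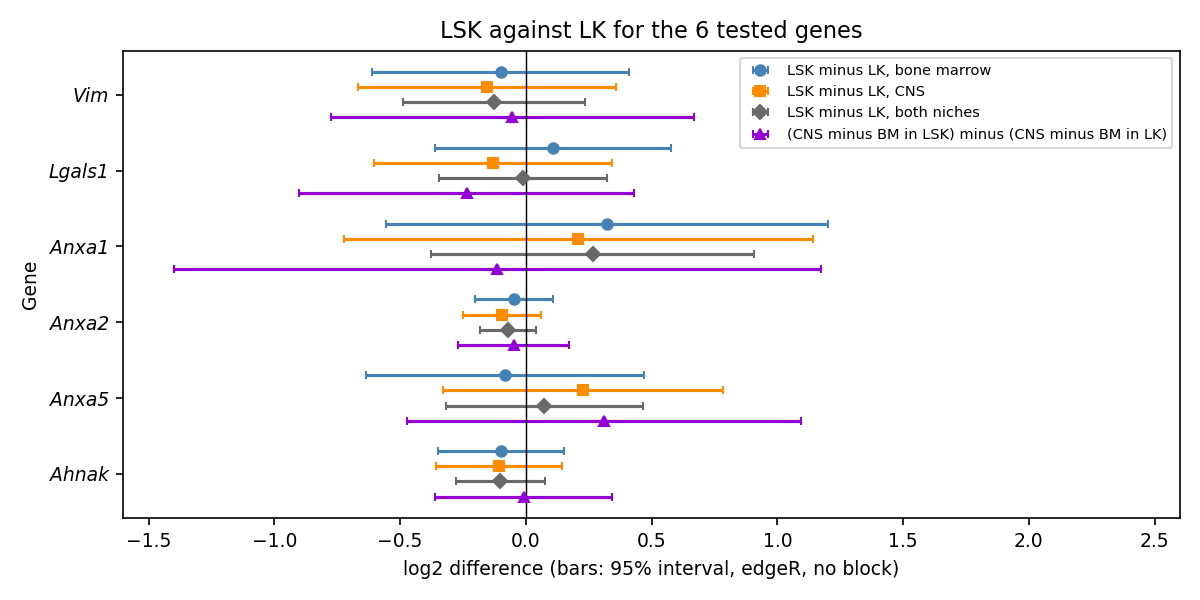
Fitted log2 differences of the 6 measurable genes with 95% intervals, from edgeR without a block: LSK minus LK in BM, in the CNS and over both niches, and the interaction. All 24 intervals include 0, and they are narrowest for Anxa2 and widest for Anxa1.

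The 6 genes did not vary as a single unit from library to library. Over the 16 libraries, log2 levels of Vim and Lgals1 had Pearson's r 0.868, Vim and Anxa2 0.844, and Lgals1 and Anxa2 0.741. After each group's mean was subtracted these were 0.784, 0.727 and 0.549. Anxa1 and Ahnak went together (0.711, and 0.747 within groups), while Ahnak and Vim within groups did not (0.0048) and Ahnak and Lgals1 had −0.34. Anxa5 had r between −0.26 and −0.024 with the other 5. Libraries of a stem share a label and may not be independent, and the values are descriptions. A stem's level in BM also went with its level in the CNS: over 8 stems r was 0.933 for Vim, 0.815 for Ahnak, 0.759 for Anxa1, 0.563 for Anxa2, 0.530 for Lgals1 and −0.33 for Anxa5.

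The genes whose levels ran most like the mean of the 6 (standardised log2 CPM over 16 libraries, 11635 other named genes with a mean of at least 50 counts) were Flna, the actin crosslinker filamin A (r 0.875, 307 CPM), E230001N04Rik (0.869), Cd44, the hyaluronan receptor (0.855, 49.8 CPM), Gnptab (0.853), Zeb1, a repressor of epithelial genes (0.828, 96.1 CPM), Rtf2 (0.812), Def8 (0.812) and Fam241a (0.803). Of the 6 genes themselves, Anxa2 lay closest to their own mean (0.912) and Anxa5 farthest (0.102). These are descriptions over libraries that share stems. The niche difference, by which genes of the set were chosen, was not removed before the ranking. Flna, E230001N04Rik, Cd44, Gnptab, Def8 and Fam241a were lower in the CNS in 8 of 8 stems, and Zeb1 and Rtf2 in 7 of 8.

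Genes of the wider cytoskeletal and membrane lists were mostly near 0 between the niches. In the fit without a block 0 genes of any list were called. The median CNS minus BM difference over both LPC types was −0.043 for 27 tested actin cortex genes and −0.020 for 12 intermediate filament genes and their linkers. It was −0.018 for 7 membrane repair genes, −0.11 for 5 annexins and 0.022 for 6 galectins. For 15 genes of memory-like and effector-like lymphocytes it was −0.15, with 13 of 15 below 0. Below 0 were also 18 of 27 actin cortex genes, 6 of 12 filament genes and 5 of 7 membrane repair genes. The same held for 4 of 5 annexins, 3 of 6 galectins and 9439 of all 18878 identifiers. Members named in a list were left out of its median and of these gene numbers. With the stem as a block, 1 actin gene (Flna, −0.23), 2 filament genes (Lmna, lamin A, −0.60, and Plec, the filament linker plectin, −0.38) and 6 of the lymphocyte list (Rhob, −1.45, Klf2, −1.0, Lmna, Itgb7, −0.55, Klf6, −0.49, and Cd44, −0.25) were called lower, against 0.381% of all identifiers. Flna, Lmna, Cd44, Itgb7, Klf2, Klf6 and Rhob were lower in 8 of 8 stems and Plec in 7 of 8. Of all identifiers averaging 10 counts or more, 1.45% were lower in all 8 stems. Those genes were called from the same stem differences, so their count of stems adds no support. These lists were drawn up with earlier results known and are not independent evidence. No S100, annexin or galectin gene outside the 10 was called, with Anxa6 at −0.077 ± 0.051, Anxa11 at −0.11 ± 0.087, S100a13 at −0.29 ± 0.11 and Lgals9 at 0.14 ± 0.15 in the fit without a block (log2, SE).

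Between LSK and LK, Lmnb1, the B-type lamin of the nuclear envelope, was the only gene of these lists called, and only with the title number as a block. It was higher in LSK by 0.28 (adjusted p 0.0444, and 0.0921 without the block, edgeR). With BM and CNS counts summed per stem, 0 identifiers were called, so Lmnb1 was not called there. The median difference over the 12 tested filament genes other than Vim was 0.14, and over all identifiers it was −0.011.

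Reads could be shared with a few neighbours. Gm16144, antisense to Anxa2 on GENCODE vM21, had 534 counts beside 60510 for Anxa2, and 1500015L24Rik, antisense to Anxa1, had 52 beside 800. The pseudogenes Lgals1-ps1 and S100a11-ps had 23 and 9 counts beside 27795 and 70 for the genes. The sources used here do not state whether strand was used in the counting.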

How the data were processed

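The deposited table held whole-number counts per Ensembl gene identifier. Its name calls the values normalised, but totals differed between libraries (19.2 to 29.2 M) and the values were taken as raw counts. The submitters' processing notes name GRCm39 and DESeq2 without a role; aligner, counter and use of strand or molecular identifiers are not given in the sources used here. Per the labels' protocols, RNA was extracted with a microprep kit and a strand-preserving pico-input kit for total RNA gave the libraries. Symbols came from reference tables by identifier (52081 of 55414), and 41.8% of all counts fell on identifiers lacking one. Exon lengths and gene order came from GENCODE vM21, which is on GRCm38, so no gene coordinates are given. Chi-square per degree of freedom between replicates of a group was 8.64 to 34.5, well above sampling noise, so none was treated as a duplicate. No sample column went unused.

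Identifiers averaging 10 counts or more (18878) were fitted in edgeR 4.0.16 (R 4.3.3) with TMM factors and 4 group means, no block, and tested two-sided by quasi-likelihood, with p-values adjusted after Benjamini and Hochberg (threshold 0.05); the code was tested on simulated data. Of the 10 genes, 6 passed the minimum. CPM uses TMM-scaled library sizes, and log2 values used for correlations add 0.5 counts. Alternatives were RLE factors, DESeq2 1.42.0, no count minimum, named identifiers only, blocks, summed stems and leaving out each library; leaving out each stem was chosen after seeing the data. The members, gene lists and rules were chosen with earlier results of these data known. Named are all 10 members, other listed genes called in any contrast with or without a block, family relatives with a mean of at least 50 counts, the 8 genes most like the members, and genes next to the S100 genes, which were added after their values were seen.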

Additional observations from a re-analysis of the deposited data

Results flagged for a closer look

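Anxa1 in the CNS LSK 3 library stood at 3.18 CPM, while the other 3 CNS LSK libraries lay between 1.16 and 1.35 CPM. Its gap to the nearest library was 0.910 of the range of the group, above Dixon's critical value for 4 values. The BM library of the same stem was also the highest of its group, at 4.18 CPM. Of 24 groups examined (6 genes in 4 groups) 1 had a library this far apart, and chance alone gives about 5% of groups.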

How the results depend on the processing

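With the count minimum and no block, 0 of the 6 genes were called in any contrast. Without the minimum, 3 were called over both LPC types (Ahnak, Lgals1, Vim), beside 85 of 53366 identifiers. In LSK 2 were called (Lgals1, Vim), beside 10 of 53366. With the replicate block on stems the counts were 3, 2 and, in LK, 1, beside 0.667%, 0.138% and 0.0636% of all identifiers. Niche values led to the choice of these genes, so nothing is read from these counts. Leaving out each stem in that fit gave 3 to 3 over both types, 1 to 2 in LSK and 0 to 1 in LK (0 without LK 2 or without LK 3). In LSK, Vim alone was called without LSK 3, and Ahnak and Vim without LSK 1, so Lgals1 was not called in either case. The block changed no call between LSK and LK or in the interaction. The 2 libraries of a stem deviated together with a correlation over 0.1 in 5 of 8 stems over genes averaging 10 counts or more (lowest −0.072). Over genes averaging 50 or more all 8 did (0.335 to 0.616). BM and CNS libraries of different stems within an LPC type ran from −0.28 to 0.22 and from −0.43 to 0.22, with 3 of 24 pairs over 0.1 each time. Over the better counted genes, libraries of a stem were thus more alike than libraries of different stems. The labels do not explain the stem, so the block stayed an alternative. The cause of the shifts in calls was not tested. Leaving out single libraries gave 0 to 0 calls in every contrast without a block.

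Directions reversed only for values near 0. LSK minus LK of Lgals1 was 0.0056 with named identifiers only and ran from −0.14 to 0.10 when single libraries were left out (0.037, 0.10, 0.027, 0.023, 0.034 and 0.022 where positive). For Anxa5 it ran from −0.025 to 0.16, with −0.025 without CNS LSK 1 and −0.0077 without BM LSK 3. The niche difference of Anxa5 in LSK ran from −0.070 to 0.29, with −0.070 without CNS LSK 1 and −0.046 without BM LSK 1. Niche differences of Vim (−0.88 to −0.44 in LSK, −0.69 to −0.41 in LK) and Lgals1 (−0.97 to −0.47 and −0.53 to −0.37) kept their sign. Depth limits the S100 genes and the scarce annexins.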

Other observations

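Over the 8 stem differences, the genes most like the mean of the 6 members were Ttc27 (Pearson's r 0.980), Cst3 (0.972), Cib1 (0.949), Snrpd3 (0.945), Smim10l1 (0.939), Ssb (0.938), Mia2 (0.938) and Nol7 (0.936), out of 11635 candidates. None of them was among the 8 found over the 16 libraries. With 8 points and that many candidates these are descriptions only.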
